A study of Mus musculus with 6 samples.

Results

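The TRAF, cIAP and A20 feedback genes are the 10 genes Tnfaip3, Tnip1, Tnip3, Birc2, Birc3, Traf1, Traf2, Traf3, Cflar and Malt1, taken by symbol from the 55335 genes of a mouse RNA-seq count table. Each symbol matched 1 gene, and all 10 were among the 13901 genes abundant enough to be tested. The cells were bone marrow-derived macrophages (BMDMs), primary mouse cells grown from bone marrow with 20 ng/mL of macrophage colony-stimulating factor, which was in the medium of every sample. On day 5 they received medium conditioned by injured pancreatic acinar cells together with 400 µM kinsenoside, a plant glycoside (PAC-CM-KD, n = 3), or that conditioned medium without kinsenoside (PAC-CM, n = 3). The comparison of these groups asks how kinsenoside alters macrophages exposed to signals of injured pancreas. Macrophages without conditioned medium were not analysed here, so no value below measures the response to that medium. The labels give no mouse strain, age or sex, nor whether each replicate is a culture or an animal of its own. The p-values reflect only how these libraries vary, which may be technical.

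Receptors of the TNF family signal to NF-kB through complexes in which TRAF proteins recruit the ubiquitin ligases cIAP1 and cIAP2. The ubiquitin chains that these ligases build recruit the kinases that free NF-kB. Several genes of this machinery are themselves NF-kB targets in macrophages, so their products act back on the signal: A20 and its ABIN partners dampen it, while cIAP2, TRAF1 and cFLIP favour survival of the cell. TRAF2, TRAF3 and the cIAPs also hold down the non-canonical pathway by marking the kinase NIK for destruction. MALT1 is a protease and scaffold downstream of CARD proteins, among them CARD9 in myeloid cells, and A20 is among its known substrates.

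Total counts per library ranged from 41125059 to 43434292 in PAC-CM-KD and from 43054066 to 47461702 in PAC-CM. On principal components of log2 CPM (counts scaled by library size), the first component (28.8% of the variance) separated the groups. PAC-CM lay between -25.7 and -11.9 on it and PAC-CM-KD between 4.29, for replicate 1, and 30.7. On the second component (23.6%) PAC-CM-KD replicate 1 stood apart, at -39.3, while the other 5 libraries lay between -6.13 and 19.7. The summed level of 8 macrophage markers, led by Lyz2, was 19600 to 22000 CPM in PAC-CM-KD and 18200 to 19800 in PAC-CM. The sum of 10 pancreatic acinar markers was 5.35 to 8.01 in PAC-CM-KD and 6.89 to 7.52 in PAC-CM, led by Cela1, with Amy2a2 at 0 counts in every library. The neutrophil list (S100a8 leading, Elane at 0) summed to 33.4 to 42.9 in PAC-CM-KD and 31.1 to 40.0 in PAC-CM. The T cell list (Cd4 leading, Cd3d at 0) summed to 11.4 to 16.7 in PAC-CM-KD and 8.76 to 16.7 in PAC-CM. The dendritic cell list (Xcr1 leading) summed to 5.86 to 8.01 in PAC-CM-KD and 6.32 to 8.93 in PAC-CM. The B cell (Ms4a1 leading), fibroblast (Pdgfrb leading) and erythroid (Hba-a1 leading) lists each stayed at or below 1.71 in every library.

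No member passed the quasi-likelihood test of edgeR after adjustment over all tested genes, against 71 genes, or 0.511%, among all 13901 (0.209% higher and 0.302% lower). Without adjustment, 5 members had p under 0.05 (Traf2, Cflar, Tnip3, Malt1 and Tnip1), all with lower estimates in PAC-CM-KD, where 8.19% of all tested genes met that criterion with a lower estimate and 6.74% with a higher one. With PAC-CM replicate 1 left out this count was 2, against 5.82% of all tested genes lower by the same criterion, and with PAC-CM-KD replicate 2 left out it was 3, against 6.42%. DESeq2 called 2 members, Traf2 and Cflar, where it called 3.52% of all tested genes, and limma-voom called 0, against 0.281% of all tested genes. Of the 10 estimates of the log2 fold change (PAC-CM-KD over PAC-CM), 9 were below 0 and 1, that of Tnfaip3, was above it, with a median of -0.21. Among all tested genes 51.1% of estimates were below 0 and the median was -0.006. For 5 members (Tnip3, Birc3, Traf2, Cflar and Malt1) every PAC-CM-KD library lay below every PAC-CM library, as it did for 11.4% of all tested genes. For no member did the groups separate the other way, as they did for 10.4% of all tested genes, or 21.8% in either direction. In bulk samples, fewer cells of a kind and less RNA per cell cannot be told apart.

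**Figure D1:**
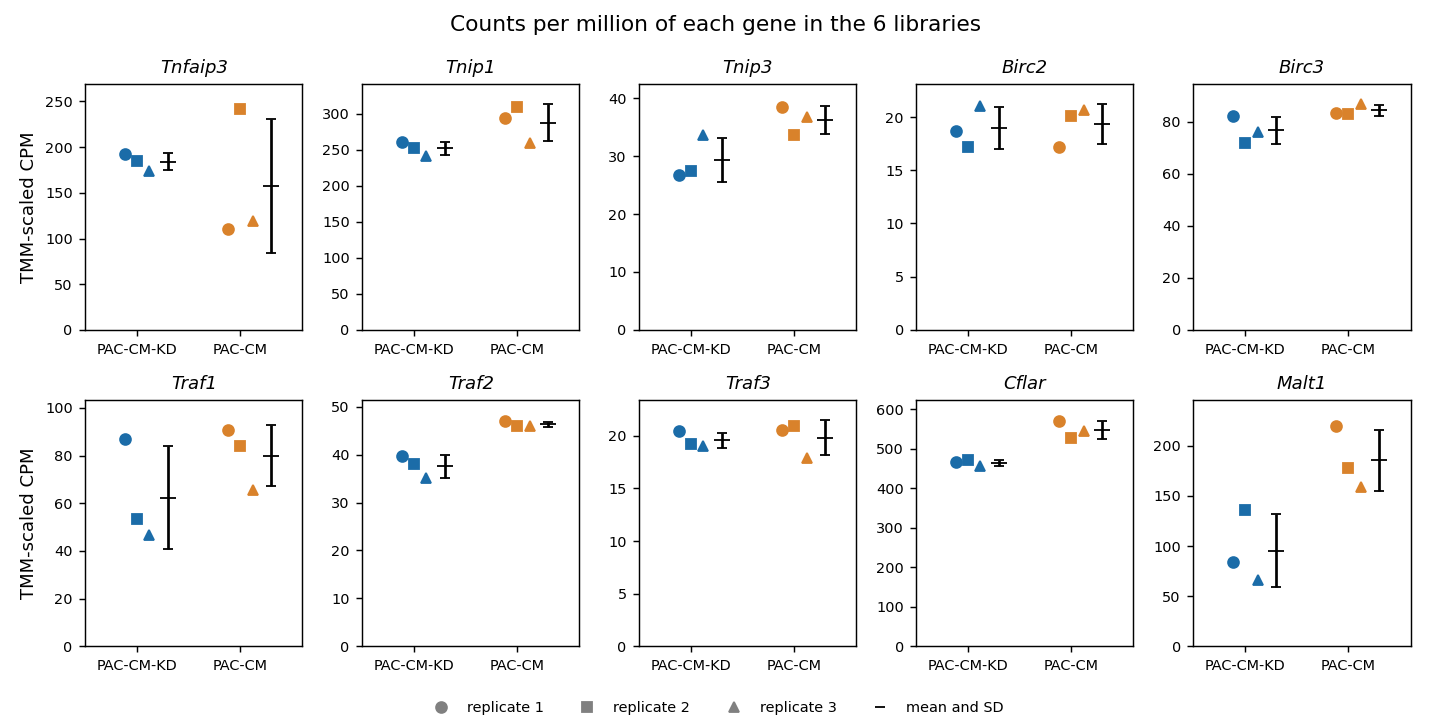
TMM-scaled CPM (vertical axis, from 0) of the 10 genes in each of the 3 PAC-CM-KD and 3 PAC-CM libraries, with the mean and SD of each group in black. The PAC-CM-KD points of Tnip3, Birc3, Traf2, Cflar and Malt1 all lie below the PAC-CM points, and PAC-CM replicate 2 stands above the other 5 libraries for Tnfaip3.

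Tnfaip3 encodes A20, a ubiquitin-editing enzyme that limits NF-kB signalling downstream of TNF and Toll-like receptors (ENSMUSG00000019850, chromosome 10, 19000910 to 19015657, minus strand, GRCm38). Its level in TMM-scaled CPM was 193, 184 and 174 in PAC-CM-KD replicates 1 to 3, against 110.2, 242 and 119 in PAC-CM replicates 1 to 3. The PAC-CM-KD libraries were close together and lay between the PAC-CM libraries, of which replicate 2 was 2.11 times the mean of the other two. In counts, PAC-CM replicate 2 held 11606 and PAC-CM replicates 1 and 3 held 4831 and 5341. The ratio of the highest to the lowest PAC-CM library was 2.19, a spread met or exceeded by 91 of 7353 tested genes with a mean count of at least 500, or 1.24%. The log2 fold change was 0.23 (SE 0.332, 95% interval -0.62 to 1.07, edgeR adjusted p = 0.810). No change was detected, and the wide interval allows a rise or a fall. Without PAC-CM replicate 2 it was 0.68 (SE 0.0843, edgeR adjusted p = 0.0336), and both remaining PAC-CM libraries lay below all 3 PAC-CM-KD libraries, a separation that 14.3% of genes showed without that library. Without PAC-CM replicate 1 or 3 it was 0.03 and 0.07 (edgeR adjusted p = 0.984 and 0.960). With PAC-CM replicate 2 left out Tnfaip3 was the only member called, among 26 of 14165 genes. The other 9 members in PAC-CM replicate 2 were between 0.897 and 1.12 times the mean of the other PAC-CM libraries. The 11 NF-kB subunit and inhibitor genes were between 0.777 and 1.19 times that mean, with Nfkbia at 1.01.

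Tnip1 and Tnip3 encode ABIN-1 and ABIN-3, ubiquitin-binding adaptors that work with A20. Tnip1 (ENSMUSG00000020400, chromosome 11, 54910785 to 54962917, minus strand) had 261, 252 and 242 CPM in PAC-CM-KD replicates 1 to 3, against 294, 309 and 260.0 CPM in PAC-CM replicates 1 to 3. The groups overlapped narrowly, since PAC-CM-KD replicate 1 was just above PAC-CM replicate 3. Its log2 fold change was -0.19 (SE 0.0768, 95% interval -0.37 to -0.02), with an edgeR adjusted p of 0.300. Tnip3 (ENSMUSG00000044162, chromosome 6, 65525313 to 65634040, plus strand) had 26.8, 27.4 and 33.6 CPM in PAC-CM-KD, against 38.5, 33.7 and 36.7 CPM in PAC-CM. The groups did not overlap, but PAC-CM-KD replicate 3 was just below PAC-CM replicate 2, and with RLE scaling they overlapped. For Tnip3 the log2 fold change was -0.31 (SE 0.102, 95% interval -0.54 to -0.08, edgeR adjusted p = 0.218).

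Promoter windows that hold the NF-kB consensus motif are shown for the members that have one, since several of the members are known NF-kB targets. RefSeq promoter windows (build GRCm38.p6, 250 bases before to 50 after a start) were at hand for 9 members in 11 windows, and those of 4 members held the consensus on either strand. The windows of Birc2, Birc3, Traf1, Traf2 and Cflar held no match, although cIAP2, TRAF1 and cFLIP are named above among the feedback products. Malt1 had no window. Capitals mark matches to that consensus, and each window is written 5′ to 3′ on the gene's strand. The windows are chr10:19015361-19015660 (minus strand) for Tnfaip3, chr11:54962891-54963190 (minus strand) for Tnip1, chr6:65590148-65590447 (plus strand) for Tnip3 and chr12:111166120-111166419 (plus strand) for Traf3.
Tnfaip3: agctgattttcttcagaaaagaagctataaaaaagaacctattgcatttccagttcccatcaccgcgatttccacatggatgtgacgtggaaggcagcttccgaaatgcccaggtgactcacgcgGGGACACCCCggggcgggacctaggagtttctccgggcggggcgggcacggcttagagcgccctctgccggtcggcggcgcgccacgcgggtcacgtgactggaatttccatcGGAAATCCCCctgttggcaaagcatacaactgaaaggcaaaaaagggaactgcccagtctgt
Tnip1: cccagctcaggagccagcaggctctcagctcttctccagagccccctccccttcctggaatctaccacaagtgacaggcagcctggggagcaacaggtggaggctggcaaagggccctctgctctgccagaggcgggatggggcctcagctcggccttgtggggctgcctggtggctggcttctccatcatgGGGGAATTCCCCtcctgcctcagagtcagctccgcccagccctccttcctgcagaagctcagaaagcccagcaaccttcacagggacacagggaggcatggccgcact
Tnip3: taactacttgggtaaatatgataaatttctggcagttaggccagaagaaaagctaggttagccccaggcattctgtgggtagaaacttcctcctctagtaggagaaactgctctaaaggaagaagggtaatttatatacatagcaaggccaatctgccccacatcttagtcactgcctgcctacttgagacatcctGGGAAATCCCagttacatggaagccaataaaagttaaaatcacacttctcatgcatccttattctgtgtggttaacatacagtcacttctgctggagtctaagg
Traf3: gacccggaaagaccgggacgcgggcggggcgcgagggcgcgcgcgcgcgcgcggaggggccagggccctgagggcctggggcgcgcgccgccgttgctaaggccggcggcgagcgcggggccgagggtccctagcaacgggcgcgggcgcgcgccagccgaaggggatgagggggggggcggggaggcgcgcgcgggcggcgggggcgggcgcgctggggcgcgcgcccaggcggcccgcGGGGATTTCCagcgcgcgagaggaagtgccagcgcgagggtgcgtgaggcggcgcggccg

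Of 32851 promoter windows of this length in the same RefSeq table, 8.46% held the consensus. Counting the start as base 0, the match in Tnip3 began at -54 and the match in Traf3 at -10. Tnfaip3 had a match at -125 and another at -12, and Tnip1 had 3 overlapping matches in a single run that began at -58. The log2 fold changes of the 4 genes with the consensus were 0.23 for Tnfaip3, -0.19 for Tnip1, -0.31 for Tnip3 and -0.02 for Traf3, with 95% intervals that overlap. A match is a string of letters and not a measured binding site. The Tnip3 window lies inside the gene model given above, at an internal start. Nearly all of the Tnfaip3 window shown also lies inside its gene model, which reaches to 19015657. Both Tnfaip3 matches are therefore within that gene model, and a second Tnfaip3 window held no match.

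Traf1, Traf2 and Traf3 encode TNF receptor-associated factors. TRAF2 is the adaptor that brings the cIAPs to TNF receptors. Traf2 (ENSMUSG00000026942, chromosome 2, 25517982 to 25546940, minus strand) had 39.7, 37.9 and 35.03 CPM in PAC-CM-KD replicates 1 to 3, against 46.9, 46.1 and 46.0 CPM in PAC-CM replicates 1 to 3. The PAC-CM libraries were nearly equal and all 3 PAC-CM-KD libraries lay below them. The log2 fold change was -0.30 (SE 0.0690, 95% interval -0.46 to -0.15), a fold of 0.811, and the smallest unadjusted p among the members (0.00203) gave an edgeR adjusted p of 0.106. With DESeq2 the adjusted p was 0.0347. Over 15 alternatives the estimate stayed between -0.35 and -0.25. DESeq2 was the only one of them to call Traf2, and without PAC-CM replicate 1 the edgeR adjusted p was 0.318.

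TRAF1 lacks the RING domain of the other TRAFs and binds TRAF2 and cIAPs. Traf1 (ENSMUSG00000026875, chromosome 2, 34941750 to 34961772, minus strand) had 87.0, 53.3 and 46.8 CPM in PAC-CM-KD, against 90.5, 83.9 and 65.5 CPM in PAC-CM. PAC-CM-KD replicate 1, the library that stood apart on the second principal component, was at the PAC-CM level and 1.74 times the mean of the other PAC-CM-KD libraries. The log2 fold change was -0.36 (SE 0.264, 95% interval -1.01 to 0.30, edgeR adjusted p = 0.597). Without PAC-CM-KD replicate 1 it was -0.68 (edgeR adjusted p = 0.106), and the groups then did not overlap, as for 18.7% of genes in the same direction without that library. Without PAC-CM-KD replicate 3 it was -0.19 (edgeR adjusted p = 0.829). With the replicate number as a block it was -0.40 (SE 0.121, edgeR adjusted p = 0.227). In both groups the level of Traf1 fell from replicate 1 to replicate 3. Whether the distance of PAC-CM-KD replicate 1 on that component plays a part here was not tested.

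Traf3 encodes the TRAF that restrains NIK and also serves interferon induction by Toll-like receptors (ENSMUSG00000021277, chromosome 12, 111166370 to 111267153, plus strand). It had 20.4, 19.3 and 19.0 CPM in PAC-CM-KD, against 20.6, 20.9 and 17.9 CPM in PAC-CM, and the PAC-CM-KD libraries lay within the range of the PAC-CM libraries. Between the groups its log2 fold change was -0.02 (SE 0.0898, edgeR adjusted p = 0.954), and its 95% interval of -0.22 to 0.19 is narrow compared with those of Traf1 and Tnfaip3.

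Birc2 and Birc3 encode cIAP1 and cIAP2, the ubiquitin ligases that modify RIPK1 in TNF receptor complexes, and lie 11634 bases apart on chromosome 9. Birc3 (ENSMUSG00000032000, 7848699 to 7873186, minus strand) had 82.2, 71.8 and 76.1 CPM in PAC-CM-KD replicates 1 to 3, against 83.2, 83.1 and 86.9 CPM in PAC-CM replicates 1 to 3. The groups did not overlap, with PAC-CM-KD replicate 1 just below the lowest PAC-CM library. Its estimate was a log2 fold change of -0.14 (SE 0.0702, 95% interval -0.30 to 0.02, edgeR adjusted p = 0.405). Birc2 (ENSMUSG00000057367, 7818227 to 7837064, minus strand) had 18.7, 17.1 and 21.03 CPM in PAC-CM-KD, against 17.2, 20.1 and 20.7 CPM in PAC-CM, with the groups interleaved. For Birc2 the log2 fold change was -0.03 (SE 0.109, 95% interval -0.28 to 0.22, edgeR adjusted p = 0.938). Of the 100-base windows in their annotated transcripts, 1.76% for Birc3 and 0.330% for Birc2 also occurred in transcripts of other genes, each other and Gm7019.

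Cflar encodes cFLIP, the inactive relative of caspase-8 that blocks death receptor signalling, and was the most abundant member in CPM (ENSMUSG00000026031, chromosome 1, 58711508 to 58758884, plus strand). It had 467, 470.0 and 456 CPM in PAC-CM-KD replicates 1 to 3, against 571, 526 and 543 CPM in PAC-CM replicates 1 to 3. The PAC-CM-KD libraries lay within 1.03-fold of each other and clearly below the PAC-CM libraries. The log2 fold change was -0.23 (SE 0.0589, 95% interval -0.37 to -0.10), a fold of 0.850 with an unadjusted p of 0.00360 and an edgeR adjusted p of 0.129. DESeq2 gave an adjusted p of 0.0445. Over the 15 alternatives the estimate lay between -0.28 and -0.20. DESeq2 was the only one of them to call Cflar, and without PAC-CM replicate 1 the edgeR adjusted p was 0.382. Of the 100-base windows of its transcripts, 4.09% were shared with other genes, the highest share among the members.

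Malt1, the gene of the MALT1 protease (ENSMUSG00000032688, chromosome 18, 65430938 to 65479067, plus strand), had the lowest estimate of the 10. Its counts were 3578, 5673 and 2658 in PAC-CM-KD replicates 1 to 3, against 9606, 8534 and 7130 in PAC-CM replicates 1 to 3. In CPM this was 83.7, 136 and 66.1 in PAC-CM-KD, against 219, 178 and 159 in PAC-CM, so the highest PAC-CM-KD library lay below the lowest PAC-CM library. Within PAC-CM-KD, replicate 2 was 1.81 times the mean of the other two, and the ratio of highest to lowest was 2.06, a spread met or exceeded by 2.08% of tested genes with a mean count of at least 500. The log2 fold change was -0.96 (SE 0.298, 95% interval -1.71 to -0.21), a fold of 0.514, and with this spread the unadjusted p of 0.0212 gave an edgeR adjusted p of 0.242. Malt1 was not called in any of the 15 alternatives, in which the estimate lay between -1.31, without PAC-CM-KD replicate 2 (edgeR adjusted p = 0.0887), and -0.76, without PAC-CM-KD replicate 3 (edgeR adjusted p = 0.353). No other annotated gene overlaps Malt1, and 0.0912% of its transcripts' 100-base windows occur elsewhere.

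**Figure D2:**
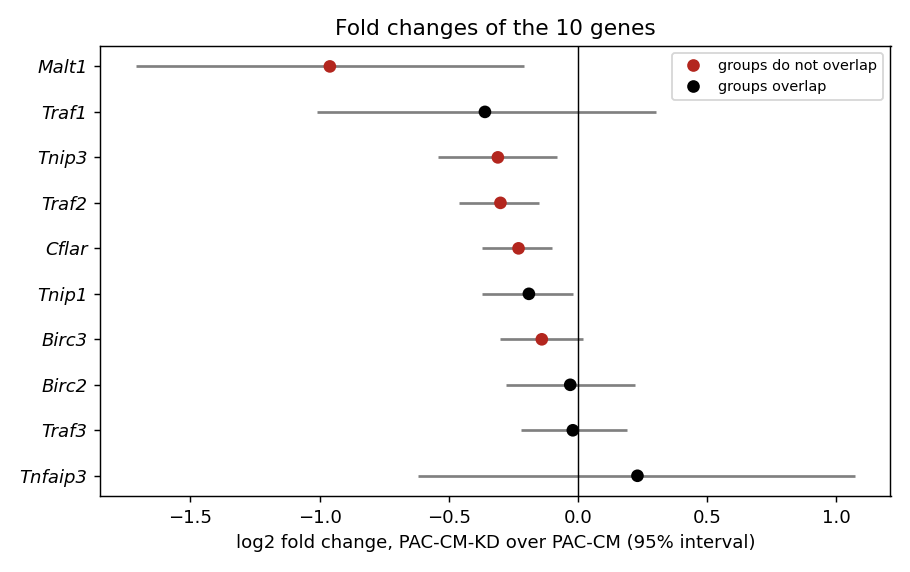
Log2 fold change of each gene, PAC-CM-KD over PAC-CM (horizontal axis), with its 95% interval from edgeR, and in red the 5 genes whose groups do not overlap. The interval of Malt1 runs from -1.71 to -0.21 and that of Tnfaip3 from -0.62 to 1.07. Those of Traf1, Birc2, Birc3 and Traf3 also span 0.

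**Figure D3:**
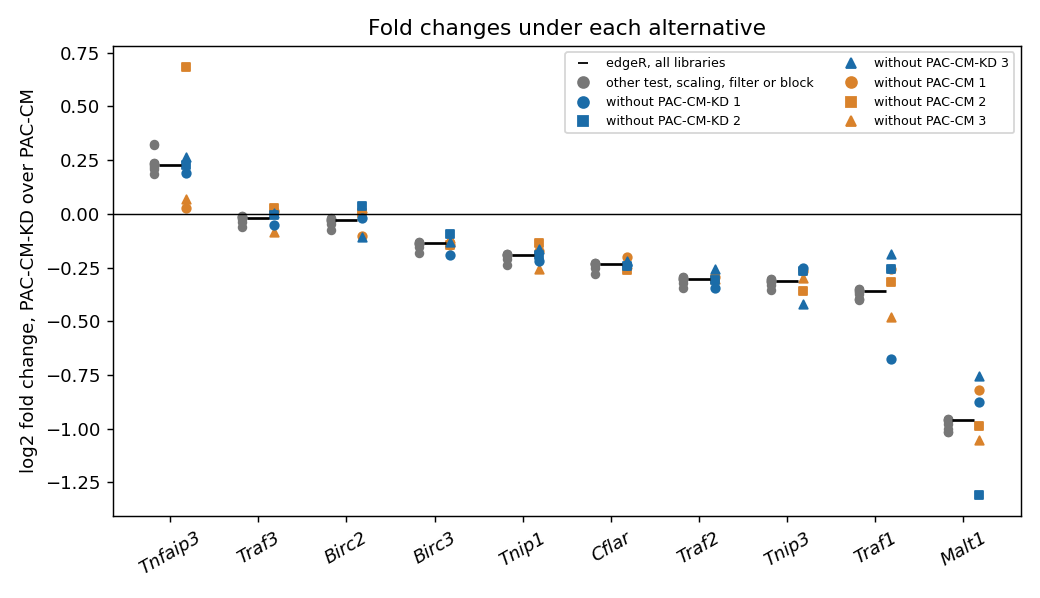
Log2 fold change of each gene, PAC-CM-KD over PAC-CM (vertical axis), with all libraries (black bar), under the 9 other tests, scalings, filters and block (grey) and without each library in turn (blue for PAC-CM-KD, orange for PAC-CM). The value of Tnfaip3 without PAC-CM replicate 2 (0.68) stands apart, as do those of Traf1 without PAC-CM-KD replicate 1 (-0.68) and of Malt1 without PAC-CM-KD replicate 2 (-1.31).

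Per kilobase of annotated exon, which allows levels of different genes to be set side by side, Tnip1 was highest in both groups, at 71.2 ± 2.70 CPM per kilobase in PAC-CM-KD and 81.3 ± 7.13 in PAC-CM (SD, n = 3 each). Cflar came second, at 36.7 ± 0.584 in PAC-CM-KD and 43.1 ± 1.78 in PAC-CM. Tnfaip3 followed at 25.4 ± 1.29 in PAC-CM-KD and 21.7 ± 10.2 in PAC-CM, and Birc3 at 15.3 ± 1.04 in PAC-CM-KD and 16.8 ± 0.427 in PAC-CM. In PAC-CM the Tnfaip3 and Birc3 libraries overlapped, and in PAC-CM-KD they did not. Traf2, Traf1 and Malt1 formed a middle tier whose neighbours overlapped in both groups. Malt1 was last of these 3 in PAC-CM-KD, at 5.28 ± 2.01, where it overlapped Birc2, and first of them in PAC-CM, at 10.3 ± 1.70. Birc2, Tnip3 and Traf3 had the lowest means. Tnip3 (2.68 ± 0.347) and Traf3 (2.66 ± 0.102) overlapped in PAC-CM-KD, while in PAC-CM every Tnip3 library (3.33 ± 0.220) lay above every Traf3 library (2.69 ± 0.227). The cIAP2 gene Birc3 exceeded the cIAP1 gene Birc2 per length in every library of both groups. These levels use the whole exonic length of each gene model, which for Malt1 and Cflar reaches 18040 and 12669 bases, and isoforms that skip exons would be understated.

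The genes around these members were described with 8 lists holding 94 genes, of which 91 were tested. In edgeR's test 3 of them fell and none rose, where 0.302% of all tested genes were called lower and 0.209% higher. All 3 had groups that did not overlap, as did 11.4% of all tested genes with PAC-CM-KD lower. The same libraries gave the calls, so this adds no separate support. The 3 called genes were Nfkbia, Nfkbiz and Tnfsf10. Nfkbia encodes the inhibitor I-kappa-B-alpha, Nfkbiz encodes I-kappa-B-zeta, a nuclear cofactor of NF-kB, and Tnfsf10 encodes the death receptor ligand TRAIL. Tnfsf10 averaged 53.8 ± 1.09 CPM in PAC-CM-KD and 79.9 ± 4.91 CPM in PAC-CM (SD, n = 3 each), a log2 fold change of -0.57 (SE 0.0688, edgeR adjusted p = 0.0184). Nfkbia averaged 234 ± 18.7 CPM in PAC-CM-KD and 346 ± 13.1 CPM in PAC-CM, a log2 fold change of -0.56 (edgeR adjusted p = 0.0263). Nfkbiz averaged 41.5 ± 3.37 CPM in PAC-CM-KD and 58.1 ± 1.80 CPM in PAC-CM, a log2 fold change of -0.48 (edgeR adjusted p = 0.0419). The calls of Nfkbia, Nfkbiz and Tnfsf10 held in 10, 7 and 12 of the 15 alternatives, with adjusted p of up to 0.120, 0.170 and 0.0979, and each was lost without PAC-CM replicate 1 or 3 or PAC-CM-KD replicate 2. Nfkbia and Nfkbiz were also lost without PAC-CM replicate 2 or PAC-CM-KD replicate 3, and Nfkbiz with limma-voom and with non-robust estimates (adjusted p = 0.0602 and 0.0610).

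**Figure D4:**
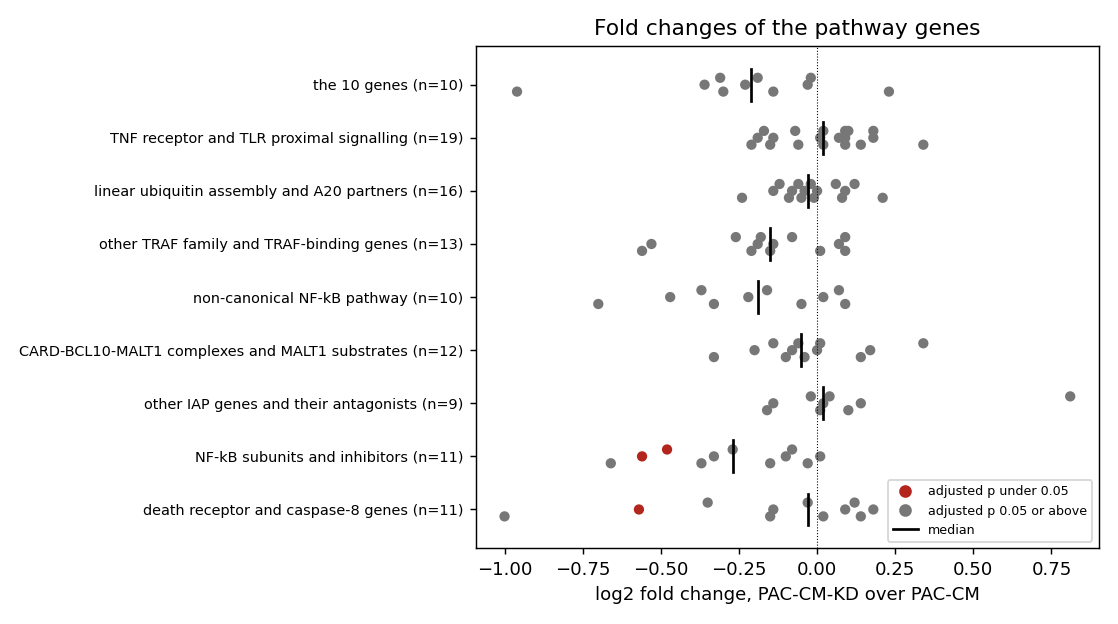
Log2 fold change, PAC-CM-KD over PAC-CM (horizontal axis), of the 10 genes and of every tested gene of the 8 surrounding lists, with called genes in red and each list's median as a black line. The medians are lowest for the NF-kB subunits and inhibitors (-0.27), the 10 genes (-0.21) and the non-canonical pathway (-0.19). The NF-kB and non-canonical lists share Nfkb2 and Relb.

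Of 11 NF-kB subunit and inhibitor genes, 10 estimates were below 0 with a median of -0.27, and 2 were called. Among 11 death receptor and caspase-8 genes, Tnfsf10 was the single call, and the median was -0.03. The other 6 lists had 0 calls by edgeR and 0 by limma-voom. Among all tested genes, 8.19% had a lower estimate at an edgeR unadjusted p under 0.05 and 6.74% a higher one. DESeq2 called 3.52% of them. Of 13 other TRAF family and TRAF-binding genes, 4 had a lower estimate at an unadjusted p under 0.05 and DESeq2 called 1, Traf5, with a list median of -0.15. Traf5, whose product acts alongside TRAF2, averaged 11.3 ± 1.66 CPM in PAC-CM-KD and 16.7 ± 2.12 CPM in PAC-CM (SD, n = 3 each; log2 fold change -0.56, edgeR adjusted p = 0.128). Ikbke, the TBK1-related kinase IKK-epsilon, had a log2 fold change of -0.26 (edgeR adjusted p = 0.197). Of 10 genes of the non-canonical pathway, 2 passed an unadjusted p of 0.05, the receptor genes Tnfrsf12a (Fn14; -0.47) and Tnfrsf11a (RANK; -0.22), DESeq2 called 0, and the median was -0.19.

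The machinery upstream of the feedback genes had estimates on both sides of 0. The counts below stand beside 8.19% of all tested genes lower and 6.74% higher at an edgeR unadjusted p under 0.05. DESeq2 called 3.52% of all tested genes. In lists this short, counts of 1 or 2 genes are not read as results about the list. Of 19 genes of TNF receptor and Toll-like receptor proximal signalling, 2 were lower and 2 higher at an unadjusted p under 0.05, DESeq2 called 1 (Tnfrsf1b, TNF receptor 2), and the median was 0.02. Tnfrsf1b had a log2 fold change of -0.21 (edgeR adjusted p = 0.137), and Ripk1, the kinase that the cIAPs modify, had 0.18 (edgeR adjusted p = 0.241). Of 16 genes of linear ubiquitin assembly and A20 partners, 1 was lower at an unadjusted p under 0.05, Rbck1 (HOIL-1, a subunit of the linear ubiquitin ligase), at -0.24 (edgeR adjusted p = 0.128), and DESeq2 called 0, with a median of -0.03. Itch, a ligase that works with A20, had 0.21 (edgeR adjusted p = 0.359), or 0.11 without PAC-CM-KD replicate 3 (edgeR adjusted p = 0.639). In the list of CARD-BCL10-MALT1 complexes and MALT1 substrates, 12 genes were tested, 1 of them was higher at an unadjusted p under 0.05 and DESeq2 called 0. The median was -0.05. That gene was Rc3h2 (Roquin-2, an RNA-binding repressor) at 0.34 (unadjusted p = 0.0351, edgeR adjusted p = 0.299), or 0.20 without PAC-CM replicate 2 (unadjusted p = 0.0718, edgeR adjusted p = 0.520). Without PAC-CM-KD replicate 2 or 3 its unadjusted p was 0.0787 and 0.112. Prkcd, a protein kinase C, had -0.14 (edgeR adjusted p = 0.356). Bcl10 and Card9, partners of MALT1, had 0.01 and -0.08. Of 9 other IAP genes and antagonists, 0 passed at an unadjusted p under 0.05, DESeq2 called 0, and the median was 0.02. Xiap had 0.14 and Htra2, an IAP antagonist of the mitochondrion, had -0.16 (edgeR adjusted p = 0.536 and 0.368). The Xiap estimate was 0.07 without PAC-CM replicate 2 and 0.23 without PAC-CM replicate 3 (edgeR adjusted p = 0.846 and 0.293). Lists share members: Relb, Nfkb2, Cyld, Chuk, Traf6, Fadd, Casp8, Ripk1 and Ripk3 are each in more than one. Bcl10 and Card9 were named after their values were seen.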

How the data were processed

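RNA-seq gene counts of 6 macrophage libraries, 3 per group, were used. Whole-number counts per Ensembl gene were taken as the authors deposited them, 1 column per library. The build is GRCm38, and STAR, StringTie 1.3.1c and DESeq2 1.16.1 are among the tools listed, per the submitters' processing notes. Their roles, the counting tool and any use of strand are not stated there, so genes that overlap on opposite strands cannot be told apart. If an assembler made the counts, reads could pass between gene models of a locus.

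Groups were compared in R 4.3.3 with edgeR 4.0.16 (limma 3.58.1 for voom): filterByExpr, TMM scaling, robust quasi-likelihood fit on the group, two-sided, Benjamini-Hochberg adjustment over 13901 genes, threshold 0.05. Intervals of 95% use the test's own standard error, the size of the log2 fold change over the square root of F. CPM values are TMM-scaled, except those of cell type markers, which are scaled by total counts. A floor of 3 counts is 0.0632 to 0.0729 CPM, which covers counting error only. Coordinates and lengths are from GENCODE M21, which holds 55154 of the table's identifiers.

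The members and gene lists were chosen with earlier results of these data known. Named beyond the members are the called genes of each list, or its 2 of smallest p, and the most abundant gene of each cell type list. The script was tested on simulated counts for PAC-CM-KD against PAC-CM over 13901 genes, and called 29 of 67 genes at a simulated fold of 1.5, 44 of 67 at 2 and 60 of 66 at 4. Alternatives were limma-voom, DESeq2 1.42.0, scaling by total count, RLE or upper quartile, 2 filters, non-robust estimates, a replicate block and leaving out each library.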

Additional observations from a re-analysis of the deposited data

How the results depend on the processing

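Under each of the 15 alternatives, the estimates of Tnip1, Tnip3, Birc3, Traf1, Traf2, Cflar and Malt1 stayed below 0 and that of Tnfaip3 above it. Those of Birc2 and Traf3 crossed 0 when single libraries were left out, ranging from -0.110 to 0.0388 for Birc2 and from -0.0823 to 0.0266 for Traf3. With a library left out, 0 to 1 members were called, and the 1 was Tnfaip3 without PAC-CM replicate 2. Members whose groups did not overlap numbered 4 with RLE scaling and 6 with upper quartile or total count scaling, where Tnip1 joined them. In these scalings 21.9% to 22.5% of all tested genes did not overlap in either direction, 10.9% to 15.7% with PAC-CM-KD lower. Leaving out a library gave 5 to 7 members, all with PAC-CM-KD lower except Tnfaip3 without PAC-CM replicate 2. But with 2 libraries against 3 the groups separated for 29.8% to 36.0% of all tested genes, 15.5% to 18.7% with PAC-CM-KD lower.

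DESeq2 called 490 genes, 2 members and 7 pathway genes. The count of all genes was 39 with limma-voom, 36 with non-robust estimates, and 13 (without PAC-CM replicate 1) to 98 (without PAC-CM-KD replicate 1) with a library left out, which gave 0 to 4 pathway genes. With total count scaling 25 calls were higher and 63 lower, against 29 and 42 with TMM. The replicate number as a block gave 42 genes, 2 pathway genes (Nfkbiz was lost) and 0 members. Deviations of same-numbered libraries correlated at 0.00874, -0.101 and 0.135 across genes, and those of different-numbered libraries at -0.173 to 0.164. Deviations from a mean of 3 libraries are tied to each other, so these values cannot decide whether the numbers are pairs. The main test did not take them as pairs. Counts were deep enough for every member, and the spread between 3 libraries limits the precision.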
